A study of Mus musculus with 13 samples.

Results

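Mitochondrial ribosomal protein genes were examined in the nuclei and cytoplasms of mouse oocytes without and with MTR4, an RNA helicase that unwinds nuclear RNA so that the exosome can degrade it from its 3′ end. They were the table entries whose symbol begins with Mrpl or Mrps followed by a digit, pseudogene symbols left out. The rule found 76 of the 23235 gene symbols, 47 for the large subunit (Mrpl) and 29 for the small subunit (Mrps). Each library was a Smart-seq2 poly(A) RNA library, primed on the poly(A) tail for very small inputs, and was made from 10 nuclei or 10 cytoplasms parted by micromanipulation. The labels list 2 libraries of MTR4-null nuclei and 2 of MTR4-null cytoplasms, all at day 21. For WT nuclei they list 2 libraries at day 14 and 3 at day 21, and for WT cytoplasms 2 at day 14 and 2 at day 21. Oocytes were the labelled cell type throughout. The strain, the null allele and the means of its deletion are not given in the sources used here.

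The deposited table held 1 value per gene for each genotype and compartment, so there were no replicates, and no difference below could be set against a spread between libraries. Neither WT column named a day, so genotype and age cannot be told apart. The values are FPKM by name, a per-length scale, but the columns were not on a common scale. Column totals were 1396110 in the null nucleus, 594034 in the WT nucleus, 3007240 in the null cytoplasm and 6637350 in the WT cytoplasm. Differences are therefore given on a relative scale, with every column first divided by the median of its genes' ratios to their geometric means over the columns. They are differences of log2(value + 1), which understate the change of low genes. A gene is called higher or lower where it differed at least 2-fold. Relative differences set a gene against the median gene. In such pooled samples, a change in the total RNA of a nucleus or cytoplasm is not seen, and fewer contributing cells and less RNA per cell cannot be told apart. The gene for MTR4, listed as Skiv2l2, stood at 3.54 in the null nucleus, 13.3 in the WT nucleus, 4.36 in the null cytoplasm and 187 in the WT cytoplasm. All 14 oocyte markers were above 0 in every column, with median percentiles among the 14240 kept genes from 98.9 to 99.7. The 14 granulosa cell markers summed to 22.7 in the null nucleus, 18.6 in the WT nucleus, 283 in the null cytoplasm and 461 in the WT cytoplasm. On the relative scale, 5 of the 12 kept granulosa cell markers were higher and 1 lower in null than in WT cytoplasm, with a median of 0.71, and 1 was higher and 3 lower in null than in WT nuclei, with a median of -0.42. Their part in the differences of the members was not tested. Of these markers, 4 in the null nucleus (Foxl2, Inha, Gja1 and Lhcgr) and 2 in the WT nucleus (Amh and Lhcgr) were listed at 0.

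The mitochondrial ribosome translates the few proteins encoded by mitochondrial DNA, all of them parts of the respiratory chain and ATP synthase. Its protein parts are encoded in the nucleus, made in the cytosol and imported. Some have a bacterial counterpart, and others are found only in mitochondria. Growing oocytes store mRNA and build up a very large number of mitochondria. A few symbols do not match the particle they are named for. Mrps30 and Mrps18a encode proteins found in the large subunit, and Mrps36 encodes a protein now assigned to the 2-oxoglutarate dehydrogenase complex.

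Sequences are shown first for the 5 genes that stood highest in the WT nucleus against the WT cytoplasm, because all of them carry a stretch found in many other transcripts. A search of the GENCODE M21 transcripts (GRCm38), made after the values were seen, took runs of 25 bases present in transcripts of at least 100 genes, with each base used at least 3 times, and joined overlapping runs into 5 families. The letters of family 3 are those of the B2 short interspersed repeat, and those of the other 4 families are of the B1 repeat. Capitals in the first 3 lines mark the 24 bases that Mrpl43, Mrpl9 and Mrpl27 share. In the last 2 lines they mark the 15 bases that Mrpl51 and Mrpl19 share. All 5 stretches lie in the 3′ UTR, on chromosome 19 for Mrpl43, 3 for Mrpl9, 11 for Mrpl27 and 6 for both Mrpl51 and Mrpl19.
Mrpl43: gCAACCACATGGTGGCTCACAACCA
Mrpl9: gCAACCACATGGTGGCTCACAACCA
Mrpl27: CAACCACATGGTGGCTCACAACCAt
Mrpl51: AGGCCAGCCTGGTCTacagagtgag
Mrpl19: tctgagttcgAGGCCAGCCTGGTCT

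The stretch began at base 1175 of a 1398-base transcript of Mrpl43, 1503 of 1612 in Mrpl9, and 652 of 756 in Mrpl27. In Mrpl51 it began at base 2659 of 3427, and in Mrpl19 at base 1156 of 5000. The Mrpl43 stretch was found in transcripts of 163 genes, and that of Mrpl19 in 166.

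Promoters are shown for Mrpl9 and Mrpl43, which were higher in null in both compartments, and for Mrpl39, which was lower in both. RefSeq windows (GRCm38.p6) of 300 bases, from 250 before to 50 after the start, matched 67 of the 76 genes and gave 73 windows. Capitals mark the core of the site of NRF1, an activator of nuclear genes for mitochondria, in Mrpl9 and Mrpl39, and the ETS core, bound by factors such as GABP, in Mrpl43. The windows are chr3:94443086-94443385 on the plus strand, chr19:45006393-45006692 on the minus strand and chr16:84735195-84735494 on the minus strand.
Mrpl9: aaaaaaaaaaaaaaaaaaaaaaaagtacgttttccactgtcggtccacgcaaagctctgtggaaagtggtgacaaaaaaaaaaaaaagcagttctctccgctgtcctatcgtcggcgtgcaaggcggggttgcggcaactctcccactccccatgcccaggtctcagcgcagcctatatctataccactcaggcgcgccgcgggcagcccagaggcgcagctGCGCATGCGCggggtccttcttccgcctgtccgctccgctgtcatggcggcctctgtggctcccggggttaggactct
Mrpl43: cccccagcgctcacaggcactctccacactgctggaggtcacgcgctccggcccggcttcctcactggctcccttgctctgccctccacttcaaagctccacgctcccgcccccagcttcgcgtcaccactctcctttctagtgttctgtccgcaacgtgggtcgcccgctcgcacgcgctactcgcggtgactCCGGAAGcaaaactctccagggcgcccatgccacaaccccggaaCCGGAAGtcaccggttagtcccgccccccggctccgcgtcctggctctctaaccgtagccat
Mrpl39: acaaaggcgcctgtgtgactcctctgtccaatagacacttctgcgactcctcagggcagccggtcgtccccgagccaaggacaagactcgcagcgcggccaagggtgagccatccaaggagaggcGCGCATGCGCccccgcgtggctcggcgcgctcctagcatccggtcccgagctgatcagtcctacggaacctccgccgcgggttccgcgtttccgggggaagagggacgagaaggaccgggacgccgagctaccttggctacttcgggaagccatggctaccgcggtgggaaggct

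Over both strands, the ETS core CCGGAAG was in 24 of the 73 member windows (32.9%), against 8.86% of all 32851 windows and 15.9% of the windows of kept genes. It was in 28.3% of large and 40.7% of small subunit windows. The NRF1 core GCGCATGCG was in 7 windows (9.59%), against 1.75% of all windows and 3.50% of those of kept genes. The YY1 element AAGATGGCG was in 8 windows (10.96%), against 1.40% of all and 2.69% of kept genes' windows. The Sp1 box GGGCGG was in 52.1% of member windows and 58.5% of kept genes' windows, TATAAA in 6.85% and 7.96%, and CCAAT in 41.1% and 38.2%. Motifs were present in members that differed in either direction. Among the members higher in null in both compartments, Mrpl43 and Mrpl51 held the ETS core, Mrpl9 the NRF1 core and Mrpl36 the YY1 element, while Mrpl20 and Mrpl41 held none of these 3. Among those lower in both, Mrps22 and Mrps27 held the ETS core, Mrps27 also the YY1 element and Mrpl39 the NRF1 core, while Mrps31 held none of them. Mrpl19 and Mrps34 had no matched window. Mrps11 and Mrpl46 lie head to head on chromosome 7, and their windows overlap by 141 bases.

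All 76 genes passed the filter of 2 or more columns with a value of 1 or more. They lay high among the kept genes, with median percentiles of 88.8 in the null nucleus, 87.4 in the WT nucleus, 86.6 in the null cytoplasm and 89.3 in the WT cytoplasm. Their median deposited values were 107, 52.8, 269 and 848 in these columns in the same order. Together they held 1.08% of the null nucleus total, 0.981% of the WT nucleus, 1.10% of the null cytoplasm and 1.25% of the WT cytoplasm. By comparison, the 78 cytoplasmic ribosomal protein genes held from 3.19% to 5.23% of a column.

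**Figure D1:**
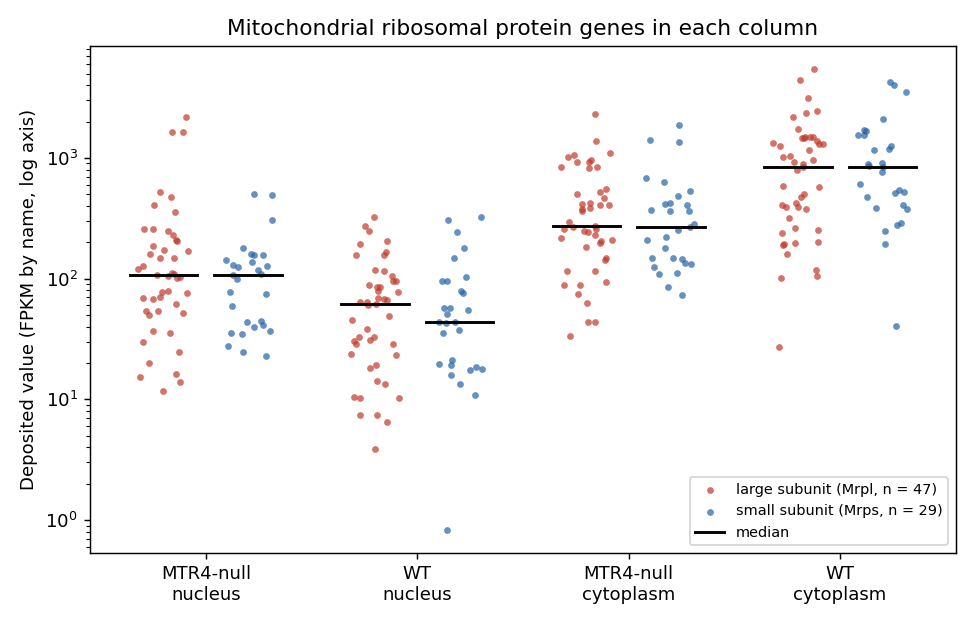
Deposited values (log axis) of the 47 large and 29 small subunit genes in each column, 1 point per gene, with black lines at the medians. Median levels of the subunits lie close together in most columns, at 107 for both in the null nucleus, where 3 large subunit genes reach 1630 or more. They lie furthest apart in the WT nucleus, at 61.6 for the large and 43.8 for the small subunit.

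Levels differed widely between members. By the mean of the 4 rescaled columns, the highest were Mrpl43 (1302), Mrpl9 (1248), Mrps36 (1026), Mrpl51 (990), Mrpl48 (958) and Mrpl14 (917). Mrpl9 and Mrpl14 are homologs of bacterial L9 and L14, whereas Mrpl43, Mrpl48 and Mrpl51 are specific to mitochondria. The lowest were Mrpl15 (21.6), Mrpl50 (32.7), Mrpl11 (34.5), Mrps34 (37.1), Mrpl19 (38.4) and Mrpl17 (42.4). Mrpl11 is a protein of the stalk base, where translation factors bind.

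The high place of Mrpl43, Mrpl9 and Mrpl51 was not the same in all columns. Mrpl43 had a deposited value of 2182 in the null nucleus, 246 in the WT nucleus, 1104 in the null cytoplasm and 195 in the WT cytoplasm. These 3 genes, chosen after their values were seen, held 47.8% of the summed large subunit value in the null nucleus, 15.1% in the WT nucleus, 22.8% in the null cytoplasm and 2.95% in the WT cytoplasm. The large to small ratio of the sums was 3.16 in the null nucleus, against 1.62 in the WT nucleus. In the null cytoplasm it was 1.77, against 1.51 in the WT cytoplasm. Without the 3 genes the ratio was 1.65, 1.37, 1.37 and 1.46 in the same order.

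Null nuclei were compared with WT nuclei to see which transcripts changed where MTR4 acts. Most mitochondrial ribosomal protein genes differed less than 2-fold. On the relative scale 10 of 76 were higher in null, against a background of 25.8% of kept genes, and 9 were lower, against 16.2%. The median was -0.14, and it was 0.055 over all kept genes. The background differed with level. Among the 4103 kept genes with at least 200 in the WT cytoplasm, 4.73% were higher in null nuclei and 22.8% lower. Among the 66 members with such a value, 9.09% were higher and 13.6% lower. That limit picks genes by a WT value. As deposited, without rescaling, 35 of the 76 members were higher (46.3% of kept genes) and 0 lower (3.69%), with a median of 0.93. With genes of at least 5 in all 4 columns alone, 16 members were higher and 2 lower, and the median was 0.20. Under quantile normalization the median was 0.018, so its sign depended on the scaling. The share of all genes called with at least 5 in all 4 columns was not computed, so those counts have no background beside them.

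Small subunit genes stood at both ends of the nuclear comparison. Mrps34, a mitochondria-specific small subunit protein needed for a stable small subunit in mice, had 39.7 in the null nucleus and 0.835 in the WT nucleus, a relative difference of 4.08. Its WT value was the lowest of any member in any column, and Mrps34 was not kept where at least 5 in all 4 columns was required. Mrps26, another mitochondria-specific protein, had 136 in the null nucleus and 13.5 in the WT nucleus, a difference of 2.22. No other small subunit gene was called higher.

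Large subunit genes made up the other 8. Mrpl51 had 1630 in the null nucleus and 95.7 in the WT nucleus, a relative difference of 2.99. For Mrpl43 the relative difference was 2.06. Mrpl9 had 1639 in the null nucleus and 203 in the WT nucleus, and differed by 1.92. In each of these genes the null value also exceeded the WT value as deposited, as it did in 67 of the 76 members. Smaller differences were those of Mrpl36, a small protein with a bacterial homolog (1.38), Mrpl19 (1.30), Mrpl20, whose bacterial homolog acts early in large subunit assembly (1.27), Mrpl10, which anchors the stalk (1.19), and Mrpl41 (1.09).

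The 9 members lower in null nuclei lay between -1.14 and -1.76 on the relative scale. Of these, Mrps31 and Mrpl39 were the 2 still called among genes of at least 5 in all 4 columns. Mrps31 had 35.7 in the null nucleus and 57.2 in the WT nucleus, a relative difference of -1.76. Mrpl39 had 15.3 in the null nucleus and 23.7 in the WT nucleus, a difference of -1.68. Both are specific to mitochondria. Mrps27, a pentatricopeptide repeat protein, differed by -1.33, and Mrpl32, which an inner membrane protease trims before assembly, by -1.26. Mrps22, which is mutated in human mitochondrial disease and ovarian failure, also differed by -1.26, with 130 in the null nucleus and 147 in the WT nucleus. The rest were Mrps18c (-1.24), Mrps33 (-1.17), Mrpl47 (-1.15) and Mrps18b (-1.14).

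Null and WT cytoplasms were compared in the same way. On the relative scale more members were lower than higher in null cytoplasm, but this depended on the filter for low values. By 2-fold, 9 of 76 were higher, against 24.2% of kept genes, and 21 were lower, against 18.6%. The median was -0.57, and it was 0.055 over all kept genes. Abundant genes as a whole lay lower in null cytoplasm. Among the 4103 kept genes with at least 200 in the WT cytoplasm the median was -0.62, and among the 66 members with such a value it was -0.64. That limit uses the WT cytoplasm column, which is itself part of the comparison. As deposited, 4 members were higher (14.9% of kept genes) and 54 lower (43.7%), with a median of -1.48. Quantile normalization gave 8 higher and 10 lower, with a median of -0.34. With genes of at least 5 in all 4 columns alone, 9 were higher and 5 lower, with a median of -0.22, so that the larger number lay on the other side. The shares of all genes called under quantile normalization and with this filter were not computed. Granulosa cell markers held 0.0094% of the null cytoplasm total, against 0.0069% of the WT cytoplasm total, and their part in these differences was not tested.

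The members higher in null cytoplasm were led by the large subunit. Mrpl43 differed by 3.38 on the relative scale. Mrpl51 had 1384 in the null cytoplasm and 427 in the WT cytoplasm, a difference of 2.59. Mrps34, the one small subunit gene called higher, had 124 in the null cytoplasm and 40.3 in the WT cytoplasm, a difference of 2.43. Mrpl9, with 2331 in the null cytoplasm and 848 in the WT cytoplasm, differed by 2.36. These 4 were the members called higher as deposited. Mrpl27, whose bacterial homolog reaches the peptidyl transferase centre, had 462 in the null cytoplasm and 261 in the WT cytoplasm, a relative difference of 1.71. The others were Mrpl20 (1.58), Mrpl36 (1.27), Mrpl41 (1.14) and Mrpl19 (1.11).

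Lower in null cytoplasm were 13 large and 8 small subunit genes. Mrpl39 had 62.6 in the null cytoplasm and 407 in the WT cytoplasm, a relative difference of -1.77. Mrpl48, the most abundant member in the WT cytoplasm, had 919 in the null cytoplasm and 5453 in the WT cytoplasm, a difference of -1.66. Mrpl28 had 267 in the null cytoplasm and 1501 in the WT cytoplasm, a difference of -1.58. The next were the mitochondria-specific Mrpl40 (-1.51), Mrpl37 (-1.41) and Mrpl54 (-1.36), then Mrps18a (-1.30) and Mrps27 (-1.29).

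The nuclear and cytoplasmic comparisons use no column in common, although all 4 columns enter every divisor. Their calls are set side by side. Higher in both were 8 genes, Mrpl9, Mrpl19, Mrpl20, Mrpl36, Mrpl41, Mrpl43, Mrpl51 and Mrps34, which are 8 of the 10 called in the nucleus and 8 of the 9 called in the cytoplasm. These are 10.5% of members, against 16.4% of kept genes called higher in both. Over all kept genes, 63.6% of those called higher in the nucleus and 67.8% of those called higher in the cytoplasm were called in both. Lower in both were 4, Mrpl39, Mrps22, Mrps27 and Mrps31, which are 4 of the 9 called in the nucleus and 4 of the 21 called in the cytoplasm, against 51.9% and 45.2% over all kept genes. These are 5.26% of members, against 8.42% of kept genes called lower in both. With at least 5 in all 4 columns, Mrps22 fell below 2-fold in the nucleus (-0.92), and Mrps27 in the nucleus (-0.99) and the cytoplasm (-0.93). Mrps34, among those higher in both, was not kept there. Opposite calls were made for 0 members and for 0.962% of kept genes, and 39 members (51.3%) were called in neither comparison, against 41.0% of kept genes.

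**Figure D2:**
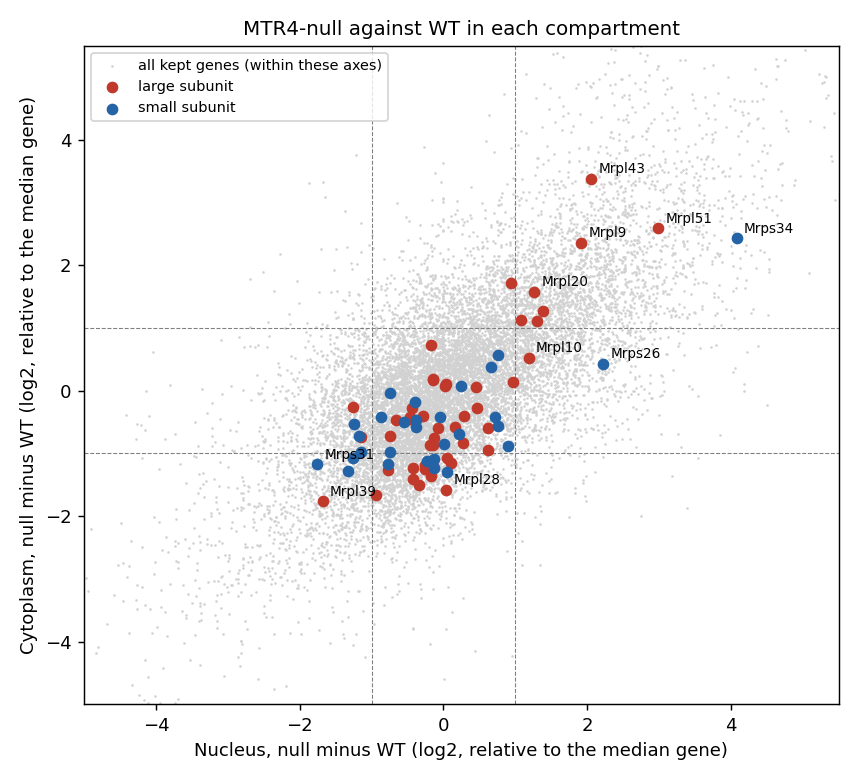
Null minus WT difference in the nucleus (x axis) and in the cytoplasm (y axis), both log2 relative to the median gene, 1 point per gene, with kept genes outside these axes not drawn and dashed lines at 2-fold. Mrpl43, Mrpl51, Mrpl9 and Mrps34 lie far to the upper right, and most members lie within 2-fold on the x axis.

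Some of these genes share exons with a neighbour in the GENCODE annotation, and the method does not keep strand. Reads of Mrpl43 and of Peo1 on the opposite strand cannot be told apart where they overlap. Peo1, the mitochondrial DNA helicase, stood at 30.9 in the null nucleus, 6.33 in the WT nucleus, 52.1 in the null cytoplasm and 93.5 in the WT cytoplasm. Mrps34 overlaps Nme3 on the same strand and Mapk8ip3 on the opposite one. Nme3 stood at 50.8 in the null nucleus, 27.1 in the WT nucleus, 187 in the null cytoplasm and 389 in the WT cytoplasm, so the level of Mrps34 is uncertain. Mrpl9 overlaps Oaz3, Mrpl27 overlaps Eme1, Mrpl36 overlaps Ndufs6 and Mrps26 overlaps 4930473A02Rik, all on opposite strands. Their part in the differences was not tested.

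Within null oocytes, the nucleus was compared with the cytoplasm. Nearly all members followed the median gene. On the relative scale 6 were higher in the null nucleus, against 12.4% of kept genes, and 1 was lower, against 8.83%. The median was 0.035, and over all kept genes it was -0.0086. As deposited, 0 were higher (2.91% of kept genes) and 60 lower (71.9%), with a median of -1.59. All 6 higher members were large subunit genes. Mrpl43 led with 2.62, followed by Mrpl19 (2.29), Mrpl51 (1.87), Mrpl1, a protein of the stalk where spent tRNA leaves (1.75), Mrpl27 (1.68) and Mrpl9 (1.13). Mrpl19 had 54.4 in the null nucleus and 33.2 in the null cytoplasm. Mrpl50, a mitochondria-specific protein, was the gene called lower, with 13.99 in the null nucleus and 93.5 in the null cytoplasm, a difference of -1.07.

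Within WT oocytes, the same comparison gave 5 members higher in the nucleus, against 9.73% of kept genes, and 4 lower, against 7.46%. The median was -0.43, and it was -0.10 over all kept genes and -0.32 over those with at least 200 in the WT cytoplasm. As deposited, 0 were higher (1.74% of kept genes) and 75 lower (91.2%), with a median of -4.02. The 5 higher members were Mrpl43 (3.95), Mrpl27 (2.46), Mrpl19 (2.09), Mrpl9 (1.57) and Mrpl51 (1.47). Every one of them was also called higher in the nucleus in null oocytes, and all were large subunit genes. The share of all kept genes called in both genotypes was not computed, so this overlap has no background beside it. Mrpl43 was the one member whose deposited value in the WT nucleus, 246, was above that in the WT cytoplasm, 195. For Mrpl27 the values were 116 in WT nuclei and 261 in WT cytoplasms. Lower in the WT nucleus were 3 small subunit genes, Mrps34 (-1.66), Mrps26 (-1.59) and Mrps11, a protein of the platform of the subunit (-1.03), and 1 large subunit gene, Mrpl15 (-1.001).

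**Figure D3:**
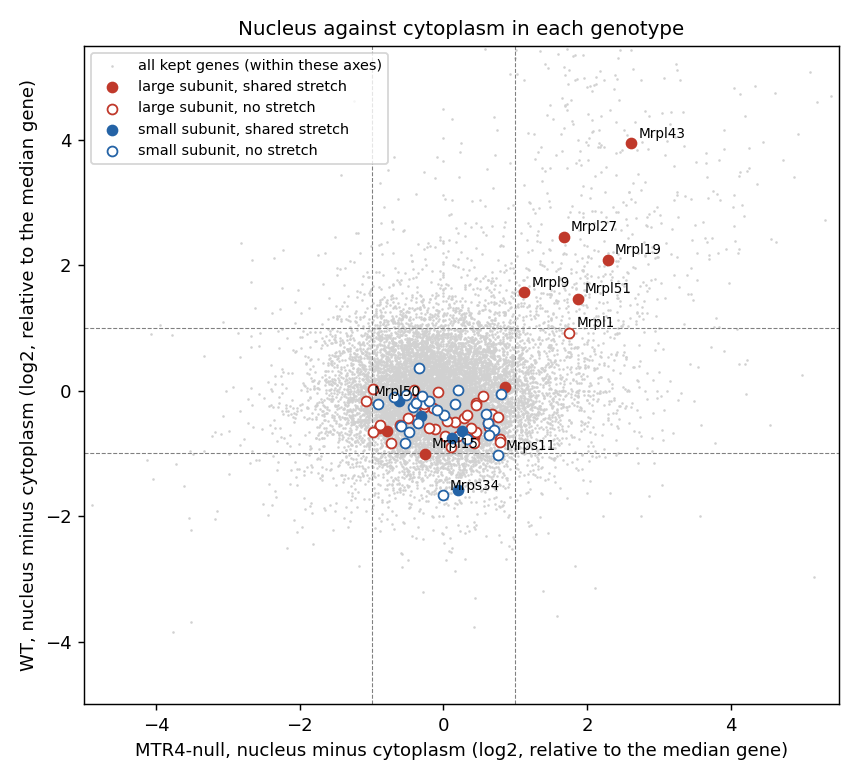
Nucleus minus cytoplasm in MTR4-null (x axis) and in WT (y axis), log2 relative to the median gene, with filled points for members that hold a stretch shared by at least 100 genes. The 5 members more than 2-fold higher in the WT nucleus are filled, large subunit genes.

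The genes high in the nucleus were those whose repeat stretches are shown above. Of the 76 members 16 (21.1%) held a stretch of at least 1 of the 5 families in some annotated transcript, against 8.86% of the 12782 kept genes with a transcript. All 5 members higher in the WT nucleus held one, and 11 of the other 71 members did (15.5%). Among kept genes, 26.3% of those higher in the WT nucleus held one, against 7.01% of the others. Mrpl1, called higher in the nucleus in null but not in WT, held none. Stretches were also present in members near the median gene. Mrps17, with the same 25 bases as Mrpl43, differed between nucleus and cytoplasm by -0.31 in null and -0.40 in WT. Members called lower in the WT nucleus held them too. Mrps26, also with these 25 bases, differed there by -1.59, and Mrpl15, with a stretch of family 1, by -1.001. Mrps34 and Mrps11, the others called lower in the WT nucleus, held none. Whether reads of other repeat copies were assigned to these genes was not tested.

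The nucleus to cytoplasm difference was then set between the genotypes, null minus WT. On the relative scale 16 members lay further toward the nucleus in null, against 16.9% of kept genes, and 2 lay less far, against 15.3%. The median was 0.38, and it was 0.073 over all kept genes and 0.21 over those with at least 200 in the WT cytoplasm. As deposited, 73 were higher (71.7% of kept genes) and 0 lower (3.32%), with a median of 2.37.

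Mrps11 had the largest shift toward the nucleus. It stood at 74.1 in the null nucleus and 136 in the null cytoplasm, against 18.5 in WT nuclei and 473 in WT cytoplasms, a difference of 1.79 between the genotypes. Mrpl46, with which it shares its promoter region, lay just under the 2-fold line at 0.998. Mrps26 was also at 1.79, followed by Mrps34 (1.65), Mrpl28 (1.61), Mrpl11 (1.57), Mrps18a (1.35), Mrps15 (1.33) and Mrpl21 (1.26). In the other direction stood Mrpl43 (-1.33) and Mrpl32 (-1.01). Mrpl43 was thus higher in the nucleus in both genotypes, by less in null.

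Transcript composition went with this shift. For the transcript with the longest coding part, the Spearman correlation across the 76 members between GC content and the null minus WT shift was 0.56, and across the 12782 kept genes it was 0.27. Genes are not independent replicates, and all points share the same 4 columns, so these are descriptions. Across members, GC content had a correlation of 0.35 with nucleus against cytoplasm in null and of -0.48 with that in WT. With null against WT it was 0.36 for nuclei and -0.20 for cytoplasms. Without the members that hold a repeat stretch, the correlation with the shift was 0.65 over 60 genes. Transcript length had a correlation of -0.070 with the shift.

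**Figure D4:**
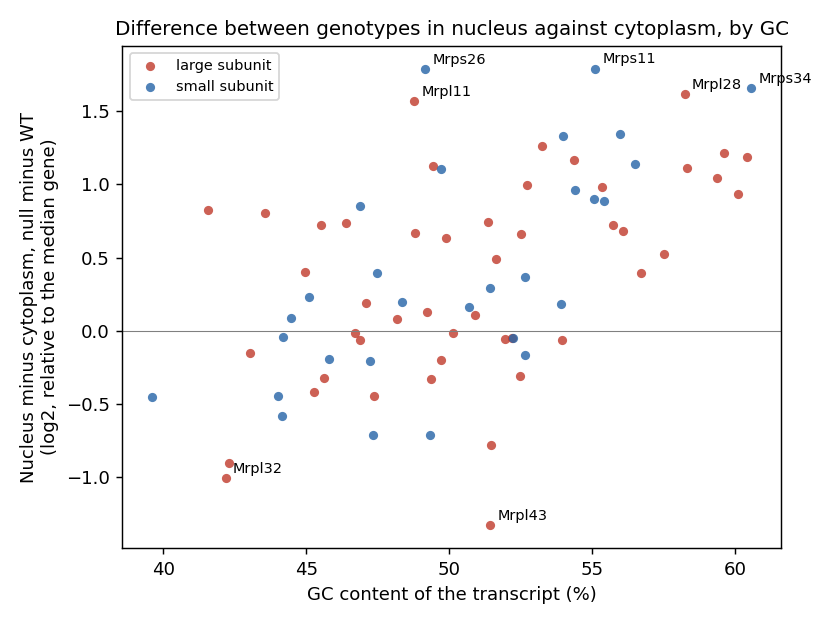
Null minus WT difference of nucleus minus cytoplasm (log2, relative) against the GC content of each member's transcript, 1 point per gene. GC-rich genes such as Mrps34 and Mrpl28 lie high and Mrpl32 lies low. Mrps26 (GC 49.2%) and Mrpl11 (48.8%) also lie high, although below the members' median GC content of 50.4%. Mrpl43 lies far below genes of like GC content.

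Large and small subunit genes had similar medians but different extremes. In null against WT nuclei the medians were -0.13 for the large and -0.23 for the small subunit, with 8 and 2 genes higher and 3 and 6 lower. These are 17% and 6.9% higher, against 25.8% of kept genes, and 6.38% and 20.7% lower, against 16.2%. In the cytoplasm the medians were -0.47 and -0.58, with 8 and 1 higher and 13 and 8 lower. These are 17% and 3.45% higher, against 24.2% of kept genes, and 27.7% and 27.6% lower, against 18.6%. For nucleus against cytoplasm the medians were 0.17 and -0.086 in null, and -0.44 and -0.38 in WT. For the shift between genotypes they were 0.49 and 0.23. There 9 and 7 were higher, 19.1% and 24.1%, against 16.9% of kept genes. No small subunit gene was more than 2-fold higher in the nucleus of either genotype. Of the large subunit genes, 12.8% were higher in the null nucleus, against 12.4% of kept genes. In the WT nucleus 10.6% were, against 9.73%, so the large subunit shares were near the background. Members are not replicates, so these medians were not tested against each other. Moving Mrps30 and Mrps18a to the large subunit and leaving out Mrps36 changed none of the 5 differences of medians by more than 0.25. None of these differences was itself much larger than 0.25, so this check could not show whether they held.

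Genes with and without a bacterial counterpart were set apart in the same way, in a split made after the values were seen. In null against WT nuclei 5 of 28 mitochondria-specific members were higher and 5 lower, against 5 and 4 of 48 with a bacterial counterpart. The shares higher were 17.9% and 10.4%, against 25.8% of kept genes. The shares lower were 17.9% and 8.33%, against 16.2% of kept genes, so the mitochondria-specific share was near the background. For the shift toward the nucleus the medians were 0.14 and 0.59. Of the groups by symbol and origin, the 11 mitochondria-specific Mrps members had the lowest median in null against WT nuclei, -0.55. That is the value of Mrps30, which like Mrps36 is in this group by symbol only. Of the 11, 4 were lower (36.4%) and 2 higher (18.2%). The 2 higher, Mrps34 (4.08) and Mrps26 (2.22), were the highest of all Mrps members.

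Members picked for their role mostly differed less than 2-fold between null and WT, but in the cytoplasm most of them lay below 0. Mrps22, picked for its role and described above, was lower in both compartments (-1.26 and -1.08). Of the proteins near the catalytic and decoding centres, Mrpl2 differed between null and WT by -0.070 in the nucleus and -0.60 in the cytoplasm, Mrpl3 by -0.15 and 0.17, Mrpl16 by -0.19 and -0.86, and Mrps12 by 0.72 and -0.42. The stalk protein Mrpl12, which also binds the mitochondrial RNA polymerase, differed by 0.28 and -0.40, and the stalk base protein Mrpl11 by 0.62 and -0.95. Among small subunit proteins with a bacterial counterpart, Mrps2 differed by -0.74 and -0.028, Mrps5 by 0.012 and -0.84, Mrps7 by -0.23 and -1.12, and Mrps16 by -0.77 and -1.16. Mrps7 and Mrps16 were thus lower in the cytoplasm. Mrpl44, which has a ribonuclease III-like fold, differed by 0.016 and 0.069. The 3 homologs of bacterial S18 did not move alike, with nuclear differences of 0.044 for Mrps18a, -1.14 for Mrps18b and -1.24 for Mrps18c, and cytoplasmic ones of -1.30, -0.98 and -0.53. Mrps30 differed by -0.55 and -0.50, and Mrps36 by -0.39 and -0.19.

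Other genes of mitochondrial translation were described by lists. The 7 mitochondrial ribosomal proteins with other symbols included none called in the nucleus, against 25.8% of kept genes higher and 16.2% lower. In null cytoplasm none was higher, against 24.2%, and 2 were lower (28.6%), against 18.6%. These 2 were Ict1 (-2.01), a peptidyl-tRNA hydrolase built into the large subunit, and Dap3 (-1.90), a GTP-binding small subunit protein. In a list of 18 genes for charging mitochondrial tRNAs, 13 were higher in null nuclei and 0 lower, with a median of 1.32. In null cytoplasm 9 were higher and 2 lower, with a median of 0.99. These are 72.2% and 50% called higher, against 25.8% and 24.2% of kept genes. The shares called lower were 0% and 11.1%, against 16.2% and 18.6%. The list holds aminoacyl-tRNA synthetases and Qrsl1, which is not itself a synthetase and was called higher in both compartments (2.08 and 1.25). The median deposited value of the list was 12.2 in the null nucleus, against 2.099 in the WT nucleus, well below that of the ribosomal proteins. Of 24 assembly and rRNA modification factors, 7 were higher and 2 lower in null nuclei, and 6 higher and 1 lower in null cytoplasm. Their shares called higher, 29.2% and 25%, were near those of kept genes. Their shares called lower were 8.33% and 4.17%, against 16.2% and 18.6% of kept genes. Of 13 translation factors, 4 were higher and 1 lower in null nuclei, and 3 higher and 4 lower in null cytoplasm. So 30.8% and 23.1% were called higher, again near the background. Called lower were 7.69% and 30.8%, against 16.2% and 18.6% of kept genes. Among the translation factors Mtfmt, which formylates the initiator tRNA, had 1059 in the null nucleus, 161 in the WT nucleus, 875 in the null cytoplasm and 229 in the WT cytoplasm.

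Cytoplasmic ribosomal protein genes moved less. Of 78, 1 was higher and 1 lower in null nuclei, with a median of -0.053, and 3 were higher and 8 lower in null cytoplasm, with a median of -0.34. Of 85 kept respiratory chain genes, 5 were higher and 3 lower in null nuclei (median -0.18), and 5 higher and 17 lower in null cytoplasm (median -0.37). Of all kept genes, 25.8% were higher and 16.2% lower in null nuclei, and 24.2% higher and 18.6% lower in null cytoplasm. No test of the difference between these lists and the mitochondrial ribosomal protein genes was possible.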

How the data were processed

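Per the labels' protocols, poly(A) Smart-seq2 libraries were made from 10 nuclei or cytoplasms each. Build mm9 and the tools Cufflinks 2.2.1 and TopHat2 2.1.1 are listed, with no role, in the submitters' processing notes. The authors deposited 1 column per genotype and compartment, FPKM by name. These deposited values were handled as a score, because their totals differ and the sources used here do not say how the authors combined libraries. Sequencing depth is unknown. Every column was used (0 left out). The filter kept 14240 genes, those reaching 1 in 2 or more of 4 columns. Columns were divided by 0.594 (null nucleus), 0.279 (WT nucleus), 1.85 (null cytoplasm) and 3.47 (WT cytoplasm), their median ratios to the geometric mean column over 13328 genes, and 1 was added before log2. With 1 column per group there was no test. The calculations were checked on simulated data (Python 3.11.15, pandas 2.3.3, numpy 2.4.6). Members and lists were chosen with earlier results of these data known. Named genes were the members past 2-fold in each comparison (the 8 furthest in each direction), the 6 highest and 6 lowest by level, and 17 listed by role. Where more than 8 were past 2-fold, the few others named were chosen after their values were seen. No member failed the filter, and no Mrp pseudogene symbol was in the table. The transcripts and promoters came from GRCm38, not from the build in the processing notes, and were matched by symbol.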

Additional observations from a re-analysis of the deposited data

How the results depend on the processing

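Leaving out each replicate was not possible, since each group has 1 column. No paired analysis was possible because the columns carry no replicate numbers. A pseudocount of 0.1 kept all 58 calls of named members and moved none of the 20 counts and medians it was run on. Calls of named members fell below 2-fold, in the same direction, for 18 of 58 as deposited, for 5 under quantile normalization and for 1 with no filter. With at least 5 in all 4 columns 10 fell below and 43 held, while those of Mrps34 and Mrpl15 could not be made. As deposited, the counts higher and lower were 35 and 0 for null against WT nuclei (median 0.93), 4 and 54 for cytoplasms (-1.48), 0 and 60 for nucleus against cytoplasm in null (-1.59), 0 and 75 in WT (-4.02), and 73 and 0 for the shift between genotypes (2.37). Differences that turned round as deposited were those between nucleus and cytoplasm in WT of Mrpl19 (-1.33), Mrpl27 (-1.16), Mrpl51 (-2.15) and Mrpl9 (-2.06), that in null of Mrpl9 (-0.51), and the shifts of Mrpl32 (0.99) and Mrpl43 (0.65). The divisors produce this by construction. Quantile normalization gave 10 members lower in null cytoplasm, 4 lower in the null nucleus than cytoplasm, and 5 with a lower shift. With no filter the last 2 counts were 3 and 1. With at least 5 in all 4 columns, 74 members remained, Mrps34 and Mrpl15 being left out, and divisors came from fewer genes. Null nuclei then had 16 members higher and 2 lower (median 0.20), null cytoplasm 5 lower (median -0.22), and 1 was lower in the WT nucleus than cytoplasm. At 1.5-fold, 19 were higher and 17 lower in null nuclei, 36 lower in null cytoplasm, 19 higher and 12 lower in the null nucleus against cytoplasm, 26 lower in WT, and 33 higher and 6 lower for the shift. No share over all genes was computed for quantile normalization, the changed filters or 1.5-fold, so these counts stand without a background.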

Other observations

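Mitochondrial mRNA handling and transcription genes were a list not described above. Of its 14 kept genes, 3 were higher and 1 lower in null than in WT nuclei, with a relative median of -0.027. In null against WT cytoplasm 0 were higher and 3 lower, with a median of -0.60. The shares in nuclei were 21.4% higher and 7.14% lower, against 25.8% and 16.2% of all kept genes. In cytoplasm 21.4% were lower, against 18.6%, and 0 higher, against 24.2%. Tfam, which packages mitochondrial DNA, had 19.8 in the null nucleus, 3.36 in the WT nucleus, 117 in the null cytoplasm and 123 in the WT cytoplasm. Its null nucleus value was higher than the WT nucleus value by 1.39 on the relative scale. Tbrg4, a regulator of mitochondrial RNA, differed by 1.41 in the nucleus and -0.61 in the cytoplasm. Taco1, a translational activator of cytochrome c oxidase subunit 1, was lower in null cytoplasm, with 19.2 in the null cytoplasm and 80.9 in the WT cytoplasm, a difference of -1.10. The list has 1 value per genotype and compartment, so nothing in it was tested.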
